A study of Oikopleura dioica with 67 samples.

Results

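Genes of the germ line and of meiosis were followed in the larvacean tunicate Oikopleura dioica through 8 unigenes, the assembled transcripts to which the authors had given the symbol Ddx4, Piwil1, BOLL, SPO11 or Msh5. They are 8 of 19277 unigenes, of which 10122 carried a symbol. Ddx4 stood on 4 of them (OD_K29COV4_DN37257_c2_g1_i3, OD_K21COV15_DN8752_c0_g3_i1, OD_K21COV4_DN15514_c4_g2_i1 and, written DDX4, OD_K21COV10_DN20709_c1_g2_i4), and each of the other symbols on 1: Piwil1 on OD_K29COV6_DN21890_c0_g1_i2, BOLL on OD_K29COV15_DN14799_c1_g5_i1, SPO11 on OD_K21COV6_DN9864_c0_g2_i2 and Msh5 on OD_K21COV4_DN18605_c3_g3_i1. A second sheet of the authors named Ddx4 DN8752 as RH52 and Ddx4 DN15514 as PRP5, both names of other RNA helicases of the same DEAD-box family, and kept the remaining 6 symbols, so these symbols are less certain than those of Ddx4 DN37257 and DDX4 DN20709.

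RNA of wild-type animals of a Japanese population, bred in the laboratory, was sequenced in 67 libraries, and levels were given as reads per unigene length and sequencing depth (RPKM). In the hemisphere set, vegetal samples, animal samples and whole embryos were taken at 12 hours post fertilization (hpf) and at the 8-cell stage, with 4 libraries in each of the 6 groups, numbered 3 to 6. In the staged set, whole specimens were taken at 13 stages (unfertilized egg, fertilized egg, 2-cell, 4-cell, 8-cell, 16-cell, 32-cell, 1.5 hpf, 2.5 hpf tadpole, 3 hpf hatched larva, 5 hpf early organogenesis, 8 hpf late organogenesis and 10 hpf juvenile), with 3 libraries each, and from adult females and adult males, with 2 libraries each. How the 12 hpf samples were divided is not told by the labels, which also do not give the number of animals per library or separate cultures for the libraries of a group, so p-values measure the spread between these libraries, which may be technical.

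Ddx4, or vasa, is a DEAD-box RNA helicase of germ plasm and germ cells, and Piwil1 is a PIWI protein, which silences transposons in the germ line with small RNAs called piRNAs. BOLL, or boule, is an RNA-binding protein of the DAZ family that is needed for meiosis of male germ cells in flies. SPO11 makes the DNA double-strand breaks that start meiotic recombination, and Msh5, with its partner Msh4, stabilises the recombination intermediates that become crossovers. Egg RNAs are made by the mother and are lost as the embryo starts its own transcription, and in this species the sexes are separate.

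Each library gave one RPKM value per unigene, and RPKM summed to between 824912 and 1121461 in the hemisphere libraries and to between 739145 and 1234504 in the staged libraries. The staged libraries held 7785352 to 95644620 reads, of which 18.9% to 49.0% aligned. Vegetal 12 hpf library 3 and whole 8-cell library 6 stood apart from the other libraries of their groups, and the male libraries correlated at 0.9 with each other. Mean correlations with the group were lowest in the staged set for 5 hpf library 20 (0.8596), 3 hpf library 5 (0.8659) and 8 hpf library 8 (0.8717). Within a stage, Ddx4 DN37257 was highest in the library with the lowest RPKM sum in 9 of 13 stages. Ddx4 DN8752 and Piwil1 were so in 8 of 13, and the median unigene in 4 stages. Of all tested unigenes, 10.45% were so in 9 or more stages and 16.44% in 8 or more, so these counts were not rare. BOLL was so in 1 stage, but in some stages it was at 0 RPKM in every library, so that none was highest there. Libraries with low sums are open circles in the plot of levels by stage. With the sum in the model, an alternative added after seeing the data, 4 of 59 results of single genes lost their call and 2 gained one, as given beside them. Summed RPKM of 18 unigenes of a sperm list was 194 to 206 in females and 15096 to 17181 in males.

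In the egg, Ddx4 and Piwil1 were already present and BOLL, SPO11 and Msh5 had at most 1.15 RPKM. Ddx4 DN37257 had 61.2, 103 and 100.5 RPKM in unfertilized eggs, its highest mean of all 15 staged groups. It had 43.4, 54.7 and 72.1 RPKM in fertilized eggs and 34.9, 55.8 and 39.6 RPKM at the 2-cell stage. From the 4-cell to the 32-cell stage its values lay between 10.7 and 31.1 RPKM, below all values up to the 2-cell stage. At 1.5 hpf it had 33.7, 35.4 and 33.6 RPKM, which lay below every egg library. Relative to the egg it fell by 1.30 ± 0.43 (SE) on the log2(RPKM + 1) scale at 1.5 hpf (limma, Benjamini-Hochberg adjusted p = 0.0307). It was the only one of the 8 unigenes to pass in that comparison, in which 17.4% of all tested unigenes passed. Its call was lost with sequencing lane in the model (adjusted p = 0.773), with the RPKM sum in the model (0.222) and with a pseudocount of 0.1 (0.0517). It was also lost without egg library 29 (0.126) or 41 (0.117), the 2 egg libraries with the lowest RPKM sums, or any one 1.5 hpf library (0.0671 to 0.0819).

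Ddx4 DN8752 had 3.17, 49.5 and 37.2 RPKM in unfertilized eggs, with the low value in library 9, whose RPKM sum was 1086521, against 835405 and 830014 in the others. Library 9 also differed from them in sequencing lane and in the form of the library description, and had the fewest reads of the egg libraries. Ddx4 DN8752 had 6.82, 6.69 and 7.51 RPKM in fertilized eggs, and from the 4-cell to the 32-cell stage it lay between 0.497 and 3.02 RPKM. At 1.5 hpf it stood at 4.98, 6.11 and 6.19 RPKM and at 2.5 hpf at 9.44, 6.04 and 12.1 RPKM, all above the 32-cell libraries (0.966, 1.12 and 0.834 RPKM). Ddx4 DN15514 was weaker, at 0.183 to 1.57 RPKM from the 4-cell to the 32-cell stage and at 1.49 to 3.22 RPKM at 1.5 hpf.

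DDX4 DN20709 followed another course. It had 11.05, 8.67 and 7.33 RPKM in unfertilized eggs and its highest mean at the 32-cell stage, with 29.6, 33.2 and 25.97 RPKM, where all 3 libraries stood above all egg libraries. By 8 hpf it was at 6.89, 5.94 and 9.74 RPKM. Of the summed mean RPKM of the 4 Ddx4 unigenes it made 63.1% at the 32-cell stage (59.7% to 68.9% by library) and 6.92% in the unfertilized egg (4.93% to 14.5%), and Ddx4 DN37257 made 33.5% at the 32-cell stage and 67.8% in the egg. Ranges of neighbouring groups in its order of means overlapped in 14 of 14 pairs, so the order of its stages is not resolved.

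Piwil1 had 14.8, 55.4 and 54.9 RPKM in unfertilized eggs and 19.7, 32.5 and 94.99 RPKM in fertilized eggs. At the 32-cell stage it had 5.09, 6.59 and 2.18 RPKM, below every earlier library. In hatched larvae at 3 hpf it had 10.2, 76.5 and 39.2 RPKM. The low value was that of library 5, the one with the highest RPKM sum (1126397, against 767947 and 810297). Library 5 also had the fewest reads of that stage (18016974, against 90351576 and 42630566), so depth and RPKM sum cannot be told apart at 3 hpf. The 3 libraries of 5 hpf repeated this spread of Piwil1. It had 24.6 and 20.3 RPKM in the libraries with sums of 825813 and 865632, and 3.37 RPKM in the library with a sum of 1115630. That library also differed from the others in sequencing lane and in the form of the library description. It had 7785352 reads, the fewest of all staged libraries. Lane, form, depth and RPKM sum cannot be told apart there.

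In the 6 steps from the unfertilized egg to the 32-cell stage 0 of the 8 unigenes passed (limma, adjusted over all unigenes). In these steps, from fertilization to the 32-cell stage, 0.0374%, 0.00%, 0.00535%, 0.0214%, 0.561% and 1.76% of all tested unigenes passed. An unadjusted p under 0.05 was reached by 0 to 2 of the 8, and by 695, 213, 1428, 438, 941 and 2259 of all 18704. The step from the 32-cell stage to 1.5 hpf, in which 14.5% of all unigenes passed, gave 0 of 8. An unadjusted p under 0.05 was reached by 5 of 8, all higher at 1.5 hpf, and by 4524 of all 18704 in either direction. The smallest adjusted p was 0.0589, for Ddx4 DN8752. The count of the 8 that passed was 1 to 4 in 6 alternatives. Among them it was 4 with the RPKM sum in the model, 4 with only the 6 libraries compared and 2 with lane in the model. The step from 1.5 to 2.5 hpf also gave 0 of 8, beside 3.17% of all unigenes, and with lane in the model 3 passed. An unadjusted p under 0.05 was reached there by 1 of 8 (BOLL) and by 2200 of all 18704.

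BOLL had the widest range of levels of the 8. It was listed at 0 in every library from the 4-cell to the 32-cell stage and at up to 0.214 RPKM before that. It had 0.788, 0.726 and 1.38 RPKM at 1.5 hpf, 5.28, 1.32 and 13.2 RPKM at 2.5 hpf, and 28.9, 35.5 and 119 RPKM at 3 hpf. At 5 hpf the 3 libraries stood close together at 280.4, 269 and 281 RPKM, its highest level in the staged set. It then had 103, 105 and 102 RPKM at 8 hpf and 64.8, 78.4 and 95.02 RPKM at 10 hpf. From 1.5 hpf to 8 hpf no library of one stage overlapped with the next stage, apart from 1.5 and 2.5 hpf, where 1.32 RPKM lay just below 1.38 RPKM.

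At 3 hpf BOLL averaged 61.2 ± 50.4 RPKM, against 6.61 ± 6.06 RPKM at 2.5 hpf (SD, n = 3 each), a difference of 3.10 ± 0.49 (SE) on the log2 scale (adjusted p = 8.97e-06). SPO11 rose as well in this step, by 0.91 ± 0.35 (adjusted p = 0.0467), and these 2 of 8 stood beside 27.6% of all tested unigenes that passed, with a median difference of 0.41 over all unigenes. The SPO11 difference was -0.021 after quantile normalization and lost its call with a pseudocount of 0.1 (adjusted p = 0.101) or the RPKM sum in the model (0.309). It also lost it without hatched library 34 (adjusted p = 0.536) or tadpole library 4 (0.26) or 32 (0.0661). With only the 6 libraries compared neither gene passed (BOLL, adjusted p = 0.148).

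At 5 hpf BOLL was higher again than at 3 hpf by 2.45 ± 0.49 (adjusted p = 0.000132), the only one of 8 to pass where 35.7% of all unigenes did, with a median difference of 0.31. At 8 hpf it was lower than at 5 hpf by a log2 difference of -1.41 ± 0.49 (adjusted p = 0.0272), again the only one, beside 29.7% of all. With a pseudocount of 0.1 this fall did not pass (adjusted p = 0.129), nor without library 6 or 20 of 5 hpf or 8, 21 or 35 of 8 hpf (adjusted p from 0.0513 to 0.0642), although the values did not overlap. From 8 to 10 hpf 0 of 8 passed, beside 4.29% of all unigenes. An unadjusted p under 0.05 was reached there by 0 of 8 and by 3052 of all 18704.

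SPO11 and Msh5, the genes of meiotic recombination, stayed low through development. SPO11 was at 0 to 0.444 RPKM in all libraries up to the 32-cell stage. It had 1.10, 1.34 and 5.26 RPKM at 3 hpf and 5.56, 2.82 and 1.57 RPKM at 5 hpf, its highest mean among the 13 stages, and 0.765, 0.997 and 1.65 RPKM at 10 hpf. Msh5 had at most 2.53 RPKM in all 43 staged libraries and reached 1 RPKM in 12 of them, and its order of means was not resolved in any of 14 neighbouring pairs. A test of any difference among the 13 stages passed for all 8 unigenes, with adjusted p from 3.84e-20 for BOLL to 0.0435 for DDX4 DN20709, but 92.9% of all unigenes passed it.

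**Figure D1:**
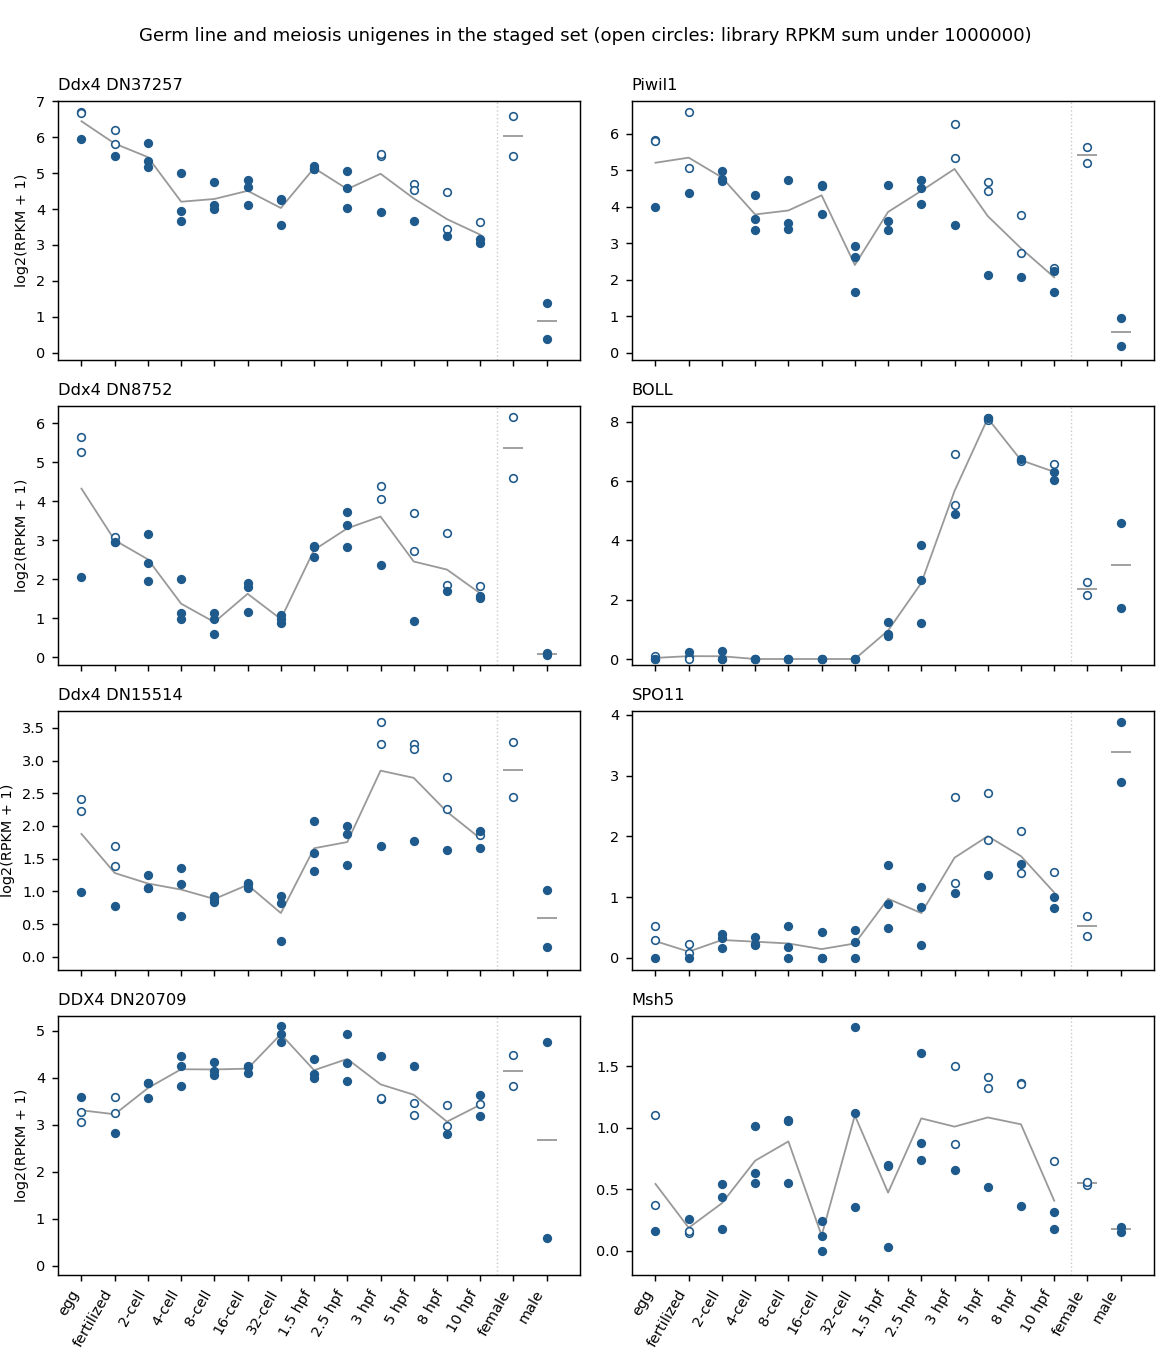
Level of each unigene, as log2(RPKM + 1), in the 43 staged libraries (points) in developmental order, followed by adult females and adult males; lines join or mark group means, and open circles are libraries whose RPKM sums to under 1000000. BOLL is at 0 from the 4-cell to the 32-cell stage and peaks at 5 hpf, while Ddx4 DN37257, Ddx4 DN8752 and Piwil1 are high in eggs and females and at most 1.62 RPKM in males.

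Piwil1 and 3 of the 4 Ddx4 unigenes were lower in juveniles than in hatched larvae. Ddx4 DN37257 averaged 8.92 ± 2.25 RPKM in 10 hpf juveniles and 34.4 ± 17.6 RPKM in 3 hpf hatched larvae (SD, n = 3 each), a log2 difference of -1.69 ± 0.43 (SE, adjusted p = 0.0011). Ddx4 DN8752 had 1.94, 1.86 and 2.57 RPKM in juveniles, against 4.17, 19.9 and 15.8 RPKM in hatched larvae (-1.97 ± 0.64, adjusted p = 0.00895). Ddx4 DN15514 had 2.16, 2.78 and 2.62 RPKM against 2.24, 8.50 and 11.04 RPKM (-1.03 ± 0.43, adjusted p = 0.0381), and these groups overlapped. Piwil1 had 3.69, 2.14 and 3.94 RPKM in juveniles, against 10.2, 76.5 and 39.2 RPKM in hatched larvae (-2.97 ± 0.63, adjusted p = 0.000148).

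These 4 of 8 passed in a comparison in which 58.0% of all tested unigenes passed, 34.9% being higher and 23.1% lower. After quantile normalization 43.6% of the calls were higher. The 4 not passing included BOLL, at 64.8 to 95.02 RPKM in juveniles and 28.9 to 119 RPKM in hatched larvae. All hatched larvae were sequenced in one lane and all juveniles in another, and with lane in the model, which then rests on other stages, 0 of the 8 passed (adjusted p from 0.225 for Piwil1 upwards among those 4) and Ddx4 DN15514 had a difference of 0.12. The form of the library description was split between these groups in the same way. With it in the model, which also rests on other stages, Ddx4 DN8752 (adjusted p = 0.143) and Ddx4 DN15514 (0.551) lost their calls. Both calls were also lost without hatched library 33 (adjusted p = 0.0647 and 0.152). That of Ddx4 DN15514 was lost too with the RPKM sum in the model (0.223), a pseudocount of 0.1 (0.11) or only the libraries compared (0.187). The same held without hatched library 34 or juvenile library 22, 23 or 24 (adjusted p from 0.0608 to 0.221).

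Piwil1 and the same 3 Ddx4 unigenes were higher in adult females than in adult males. Ddx4 DN37257 had 43.5 and 95.3 RPKM in females, against 1.62 and 0.304 RPKM in males, a log2 difference of 5.15 ± 0.53 (SE, adjusted p = 4.11e-10). Ddx4 DN8752 had 23.1 and 70.0 RPKM in females, against 0.0422 and 0.067 RPKM in males (5.29 ± 0.78, adjusted p = 6.65e-07). Piwil1 had 35.6 and 48.9 RPKM in females, against 0.922 and 0.122 RPKM in males (4.86 ± 0.78, adjusted p = 2.39e-06). For these 3 every female library was above every male library; 69.9% of all unigenes did not overlap between the sexes.

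Ddx4 DN15514 was also higher in females, at 4.45 and 8.69 RPKM against 1.04 and 0.110 RPKM in males (2.27 ± 0.52, adjusted p = 0.000424). SPO11 was the one unigene of the 8 that passed as lower in females, at 0.281 and 0.614 RPKM, against 13.7 and 6.43 RPKM in males (-2.86 ± 0.42, adjusted p = 6.73e-07). SPO11 thus had its highest staged level in males, above its 5 hpf libraries in both of them.

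In all, 5 of 8 passed between the sexes, beside 46.8% of all tested unigenes. Of all unigenes 40.2% were higher in females and 6.61% lower, with a median difference of 0.73, whereas after quantile normalization 52.6% of the calls were higher. The 4 higher unigenes stood 1.54 to 4.56 above that median, and SPO11 stood at -3.59 relative to it. Ddx4 DN15514 did not pass after quantile normalization (0.74, adjusted p = 0.0631) or with only the 4 libraries compared (adjusted p = 0.057). Summed RPKM of 25 muscle unigenes differed between the sexes too, at 260 to 262 in females and 21299 to 34862 in males. That of 56 gut marker unigenes overlapped, at 742 to 2717 in females and 382 to 3116 in males. So did that of 11 neuron unigenes, at 56.1 to 160.5 in females and 80.9 to 248 in males. As these are whole animals, a different number of germ cells, amount of RNA per germ cell or share of other tissues cannot be told apart. This holds in all other groups as well.

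The remaining 3 did not pass between the sexes. DDX4 DN20709 had 21.5 and 13.1 RPKM in females, against 26.1 and 0.502 RPKM in males (1.48 ± 0.63, adjusted p = 0.053). The result hung on which male library was kept. The difference was 3.57 (adjusted p = 5.65e-08) without male library 25 and -0.61 (adjusted p = 0.347) without male library 26. After quantile normalization it was -0.31. With the RPKM sum in the model it passed (1.87, adjusted p = 0.0162). DDX4 DN20709 made 23.2% and 7.01% of the summed Ddx4 RPKM in the female libraries, against 90.6% in male library 25 and 51.0% in male library 26. No Ddx4 unigene was above 0.502 RPKM in male library 26, so its share rests on values near 0. BOLL had 5.05 and 3.42 RPKM in females, against 23.3 and 2.27 RPKM in males, and Msh5 had 0.451 and 0.475 RPKM in females, against 0.142 and 0.113 RPKM in males.

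Set against the 10 hpf juvenile, females were higher in Ddx4 DN37257 (2.75 ± 0.48, adjusted p = 1.11e-05), Ddx4 DN8752 (3.73 ± 0.72, adjusted p = 3.88e-05) and Piwil1 (3.36 ± 0.71, adjusted p = 0.000139) and lower in BOLL (-3.94 ± 0.55, adjusted p = 2.26e-07), which was 4 of 8 where 59.1% of all unigenes passed with a median difference of -0.33. Against the unfertilized egg, females passed for 1 of 8, BOLL, with 5.05 and 3.42 RPKM in females and 0, 0.0817 and 0 RPKM in eggs (2.33 ± 0.55, adjusted p = 0.00121), beside 23.8% of all unigenes and a median difference of 0.33, and this did not pass after quantile normalization (0.82, adjusted p = 0.303). Ddx4 DN37257, Ddx4 DN8752 and Piwil1 overlapped between females and eggs.

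Males differed from juveniles in 5 of 8, where 75.6% of all unigenes passed and the median difference was -1.68. SPO11 was higher in males, at 13.7 and 6.43 RPKM, against 0.765, 0.997 and 1.65 RPKM in juveniles (2.31 ± 0.39, adjusted p = 3.25e-06). BOLL was lower in males, with 23.3 and 2.27 RPKM against 64.8, 78.4 and 95.02 RPKM in juveniles (-3.16 ± 0.55, adjusted p = 6.21e-06). Ddx4 DN37257 was lower by a log2 difference of -2.40 ± 0.48 (adjusted p = 4.75e-05), Ddx4 DN8752 by -1.56 ± 0.72 (adjusted p = 0.0482) and Ddx4 DN15514 by -1.22 ± 0.48 (adjusted p = 0.0218). Relative to the median of all unigenes Ddx4 DN8752 and Ddx4 DN15514 were 0.12 and 0.46 higher, and after quantile normalization only BOLL and SPO11 passed, with Ddx4 DN15514 at 0.39. Leaving out any one of the 5 libraries compared ended the call of Ddx4 DN8752 (adjusted p from 0.0666 to 0.135), and leaving out male library 26 that of Ddx4 DN15514 (0.255). Piwil1 had 0.922 and 0.122 RPKM in males, against 3.69, 2.14 and 3.94 RPKM in juveniles, with an adjusted p of 0.0535 that fell below the threshold in 6 alternatives, among them a pseudocount of 0.1 (0.00223) and the RPKM sum in the model (0.00119), and with a difference of 0.25 after quantile normalization. The comparisons of adults share the female, male or juvenile libraries with one another.

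**Figure D2:**
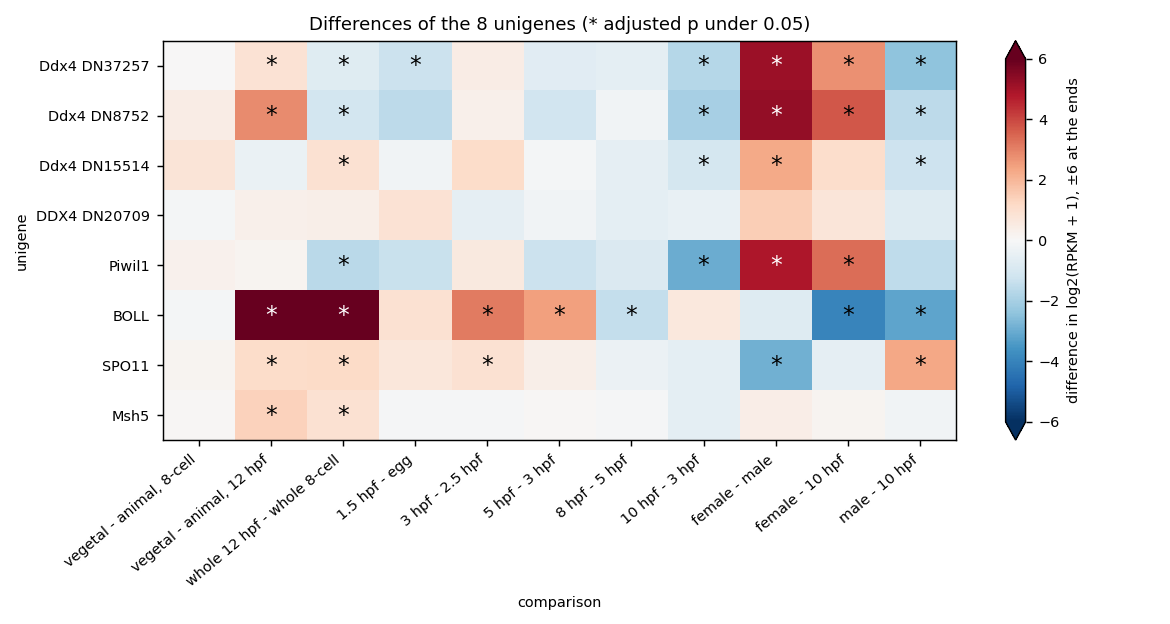
Difference in log2(RPKM + 1) of the 8 unigenes (rows) in 11 of the comparisons (columns, named first group minus second); red is higher and blue lower in the first group, the colours end at ±6, and an asterisk marks an adjusted p under 0.05. BOLL stands out in vegetal against animal samples at 12 hpf with 8.25, and Ddx4 DN37257, Ddx4 DN8752 and Piwil1 in females against males with 4.86 to 5.29.

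In the hemisphere set 5 of the 8 unigenes were higher in the vegetal than in the animal samples of 12 hpf, and BOLL was close to 0 in the animal samples. BOLL had 627, 816, 827 and 386 RPKM in vegetal samples, against 0.387, 0.391, 1.39 and 3.12 RPKM in animal samples. Whole embryos of the same age lay between, at 365, 307, 244 and 264 RPKM. The log2 difference between vegetal and animal samples was 8.25 ± 0.42 (SE, adjusted p = 1.32e-13), and it lay between 8.06 and 9.26 in 16 alternatives.

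Ddx4 DN8752 had 6.70, 19.3, 15.2 and 13.4 RPKM in vegetal samples, against 0.627, 1.71, 0.791 and 0.674 RPKM in animal samples, so that the groups did not overlap (2.86 ± 0.32, adjusted p = 7.89e-08). Ddx4 DN37257 had 31.2, 17.6, 22.7 and 18.7 RPKM in vegetal samples and 14.4, 6.82, 9.25 and 19.01 RPKM in animal samples (0.87 ± 0.32, adjusted p = 0.0248). Here the groups overlapped, and the call was lost in 7 of 16 alternatives, among them without vegetal library 3 (adjusted p = 0.0809), without vegetal library 5 (0.0506), without animal library 4 (0.11) or 5 (0.0649) and after quantile normalization (0.403).

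Both meiosis genes were higher in vegetal samples too. SPO11 had 1.70, 5.35, 3.05 and 5.07 RPKM in vegetal samples, against 1.05, 0.779, 2.02 and 0.904 RPKM in animal samples (1.08 ± 0.28, adjusted p = 0.0022), with 1.70 and 2.02 RPKM overlapping. Msh5 had 3.37, 2.22, 2.10 and 0.849 RPKM in vegetal samples, against 0.158, 0.107, 0.238 and 0.142 RPKM in animal samples (1.37 ± 0.23, adjusted p = 2.01e-05). Msh5 reached 1 RPKM in only 4 of the 24 hemisphere libraries, 3 of them vegetal 12 hpf samples, and so entered the test mainly through the group in which it was high. After quantile normalization neither SPO11 (0.03, adjusted p = 0.958) nor Msh5 (0.23, adjusted p = 0.405) passed, and SPO11 did not with a pseudocount of 0.1 (adjusted p = 0.0658).

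With these, 5 of 8 passed at 12 hpf, all higher in vegetal samples, beside 48.2% of all tested unigenes, with 32.9% higher and 15.3% lower. The median difference over all unigenes was 0.30, and after quantile normalization 45.6% of the calls were higher. The other 3 did not pass. Piwil1 had 13.1, 15.01, 10.9 and 10.7 RPKM in vegetal samples, against 15.5, 10.7, 6.64 and 12.97 RPKM in animal samples. Ddx4 DN15514 had 8.70, 4.19, 9.43 and 8.34 RPKM against 10.9, 9.85, 9.29 and 9.98 RPKM. DDX4 DN20709 had 7.36, 8.51, 6.13 and 7.01 RPKM, just above the 4.70, 5.95, 5.79 and 6.10 RPKM of animal samples, without overlap; 34.5% of all unigenes did not overlap there. In whole embryos of 12 hpf the mean lay outside both for Ddx4 DN15514 (5.74 RPKM, against 7.66 in vegetal and 10.01 in animal samples). So it did for DDX4 DN20709 (8.34 RPKM, against 7.25 and 5.63), while the means of the other unigenes lay between.

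The vegetal and animal samples of 12 hpf also differed in tissue markers. Summed RPKM of 56 gut marker unigenes was 3469 to 10128 in vegetal and 254 to 528 in animal samples, that of 25 muscle unigenes 1845 to 3650 and 593 to 1188, that of 18 sperm list unigenes 1137 to 2652 and 44.9 to 108, and that of 11 neuron unigenes 230 to 1011 and 1156 to 2044. The sperm list does not mark sperm alone, as its sum was 314 to 763 in whole 8-cell embryos. Whole embryos of 12 hpf had a summed RPKM of 5531 to 7692 for the muscle unigenes, above both. Of the gut markers 7 were at 0 in all 4 animal libraries. Their part in the differences above was not tested.

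At the 8-cell stage 0 of the 8 unigenes passed between the vegetal and animal hemispheres with limma, beside 0.401% of all tested unigenes. An unadjusted p under 0.05 was reached by 1 of 8 and by 176 of all 15697. That 1 was Ddx4 DN15514, with 3.15, 2.70, 4.35 and 4.54 RPKM in vegetal hemispheres, against 1.54, 1.88, 2.61 and 0.933 RPKM in animal hemispheres (0.79 ± 0.29, adjusted p = 1, also with the replicate block). Its groups did not overlap, as in 1.15% of all unigenes, and it was higher in the vegetal library of all 4 number pairs. Ddx4 DN37257 had 31.6, 30.6, 30.8 and 21.4 RPKM in vegetal and 38.01, 34.8, 23.1 and 19.6 RPKM in animal hemispheres. Ddx4 DN8752 had 15.3, 22.3, 17.4 and 24.7 RPKM in vegetal and 14.98, 16.9, 10.6 and 13.8 RPKM in animal hemispheres. Piwil1 had 38.6, 55.3, 22.5 and 35.9 RPKM in vegetal and 42.2, 63.3, 11.5 and 25.5 RPKM in animal hemispheres. All 3 overlapped, although Ddx4 DN8752 too was higher in the vegetal library of all 4 number pairs. BOLL, SPO11 and Msh5 had at most 0.788 RPKM in all 8 of these libraries.

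The difference between vegetal and animal samples was itself different at 12 hpf and at the 8-cell stage for 4 of 8, beside 35.6% of all tested unigenes. It was larger at 12 hpf by 8.37 ± 0.60 for BOLL (adjusted p = 1.75e-10), by 2.39 ± 0.46 for Ddx4 DN8752 (adjusted p = 0.000213) and by 1.31 ± 0.32 for Msh5 (adjusted p = 0.00233), and for Ddx4 DN15514 it was -1.18 ± 0.41 (adjusted p = 0.0279). Msh5 reached 1 RPKM only in libraries of 12 hpf, mainly vegetal ones, so it entered this test through the group in which it was high. Its value is therefore a description rather than support. Msh5 gave -0.32 after quantile normalization, and Ddx4 DN15514 did not pass without vegetal library 4 of 12 hpf, vegetal library 5 or 6 or animal library 6 of the 8-cell stage (adjusted p from 0.0545 to 0.0754) or with the RPKM sum in the model (0.0649).

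**Figure D3:**
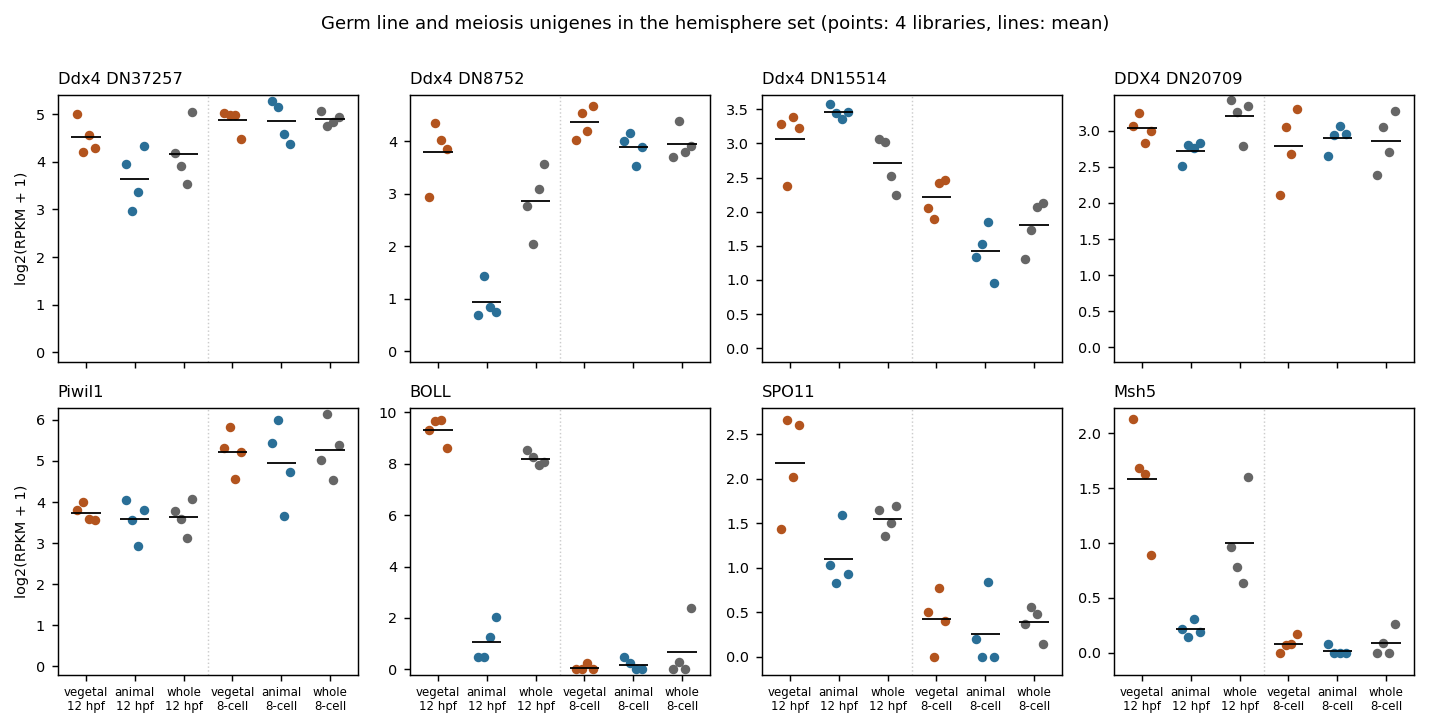
Level of each unigene, as log2(RPKM + 1), in vegetal, animal and whole samples at 12 hpf and at the 8-cell stage; points are the 4 libraries of a group and black lines their mean. At 12 hpf the vegetal and animal points of BOLL, Ddx4 DN8752 and Msh5 do not overlap, and at the 8-cell stage BOLL, SPO11 and Msh5 are near 0 in vegetal, animal and whole samples.

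Whole embryos showed the change with age. BOLL averaged 295 ± 53.7 RPKM at 12 hpf and 1.10 ± 2.05 RPKM at the 8-cell stage (SD, n = 4 each), where 3 libraries had at most 0.218 RPKM and library 6 had 4.18 RPKM (log2 difference 7.53 ± 0.42, SE, adjusted p = 6.76e-13). Piwil1 had 12.9, 10.99, 7.66 and 15.9 RPKM at 12 hpf, against 31.3, 69.3, 22.2 and 40.8 RPKM at the 8-cell stage (-1.63 ± 0.41, adjusted p = 0.000956). Ddx4 DN8752 had 5.80, 3.10, 7.49 and 10.8 RPKM at 12 hpf, against 12.0, 20.0, 12.9 and 14.1 RPKM at the 8-cell stage (-1.09 ± 0.32, adjusted p = 0.00417), and neither gene's groups overlapped, as in 71.7% of all unigenes.

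Across the 8 unigenes 7 passed between the ages, beside 79.1% of all tested unigenes and a median difference of 1.17. Ddx4 DN37257 was lower at 12 hpf (-0.73 ± 0.32, adjusted p = 0.0375), a call lost without library 3, 4 or 5 of 12 hpf or 3, 5 or 6 of the 8-cell stage (adjusted p from 0.0542 to 0.149). SPO11 (1.16), Msh5 (0.91) and Ddx4 DN15514 (0.90) were higher at 12 hpf as deposited, with -0.007, -0.26 and -0.27 once the median of all unigenes was taken off, and were lower at 12 hpf after quantile normalization (-1.14, -0.62 and -1.64). Msh5 passed the filter only through libraries of 12 hpf. DDX4 DN20709 did not pass, at 9.76, 8.56, 5.93 and 9.10 RPKM at 12 hpf, against 4.24, 7.27, 5.55 and 8.66 RPKM at the 8-cell stage.

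The 2 sets, normalized separately and made with different kits, gave unlike levels for the same stage. At the 8-cell stage Ddx4 DN8752 had 12.0, 20.0, 12.9 and 14.1 RPKM in whole embryos of the hemisphere set and 0.959, 0.497 and 1.21 RPKM in the staged set. DDX4 DN20709 showed the reverse, with 4.24 to 8.66 RPKM in the hemisphere set and 15.8 to 19.1 RPKM in the staged set. Ddx4 DN37257 had 26.1 to 32.5 RPKM and 14.9 to 25.7 RPKM. The libraries of the hemisphere set did not keep the strand of the RNA and those of the staged set did, and no test was made between the sets.

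The other genes of the germ line and of meiosis were represented by 46 unigenes with 40 of 130 symbols searched, 20 of the germ line (piRNA factors, Tudor and Pumilio proteins and the like) and 26 of meiosis and its DNA repair. In females against males 36 of 44 tested were higher, 1 was lower and 7 did not pass, where 40.2% of all unigenes were higher and 6.61% lower, with a median of 3.35 beside 0.73 for all unigenes. Sun2, a protein of the inner nuclear membrane that links chromosomes to the cytoskeleton, had 140.5 and 137 RPKM in females, against 3.32 and 1.27 RPKM in males (5.48, adjusted p = 3.15e-13) on unigene OD_K29COV4_DN31225_c0_g1_i3, while its second unigene, OD_K29COV4_DN14243_c0_g3_i1, was near 0 in both sexes (0.028, adjusted p = 0.994). Snd1, a Tudor protein, had 102 and 265 RPKM against 4.27 and 0.260 RPKM in males (6.003, adjusted p = 5.44e-10). PRMT5, the arginine methyltransferase that marks PIWI proteins for Tudor binding, had 72.3 and 60.1 RPKM against 3.93 and 0.884 RPKM in males (4.46, adjusted p = 7.69e-10).

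Hormad1, a protein of the meiotic chromosome axis, was the lower one. It had 0 and 0.0678 RPKM in females, against 62.2 and 12.6 RPKM in males (-4.83, adjusted p = 2.14e-15), and so shared its direction with SPO11. Summed RPKM of the 20 germ line unigenes was 894 to 1425 in females and 19.2 to 81.9 in males, and that of the 26 meiosis unigenes 718 to 1049 in females and 35.8 to 248 in males.

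In vegetal against animal samples at 12 hpf, 12 of 43 tested were higher, 1 was lower (a Pum2 unigene, named after its value was seen) and 30 did not pass, with a median of 0.46 beside 0.30 for all unigenes. The share higher was below that of all unigenes, of which 32.9% were higher and 15.3% lower; with only the libraries compared 8 passed. FKBP6, a chaperone partner needed in the piRNA pathway and in male meiosis of mice, had 12.0, 10.0, 14.8 and 12.53 RPKM in vegetal samples, against 0.132, 0.869, 1.07 and 1.14 RPKM in animal samples (2.92, adjusted p = 2.26e-08). Psmc3ip, which helps the strand exchange of meiotic recombination, had 8.84, 12.2, 7.15 and 12.9 RPKM against 1.03, 0.871, 0.932 and 0.649 RPKM in animal samples (2.56, adjusted p = 2.41e-07). In neither gene did the groups overlap.

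Pum3, a Pumilio-family protein that is known outside the germ line as well, averaged 71.8 ± 19.2 RPKM in vegetal and 21.8 ± 5.08 RPKM in animal samples (SD, n = 4 each; 1.66, adjusted p = 8.17e-07). Henmt1, which methylates the ends of piRNAs, averaged 2.45 ± 0.99 RPKM in vegetal and 0.354 ± 0.148 RPKM in animal samples (1.30, adjusted p = 0.000611), and did not pass after quantile normalization (0.15, adjusted p = 0.639). Summed RPKM of the germ line unigenes was 316 to 439 in vegetal and 248 to 300 in animal samples, and that of the meiosis unigenes 374 to 567 and 341 to 383.

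**Figure D4:**
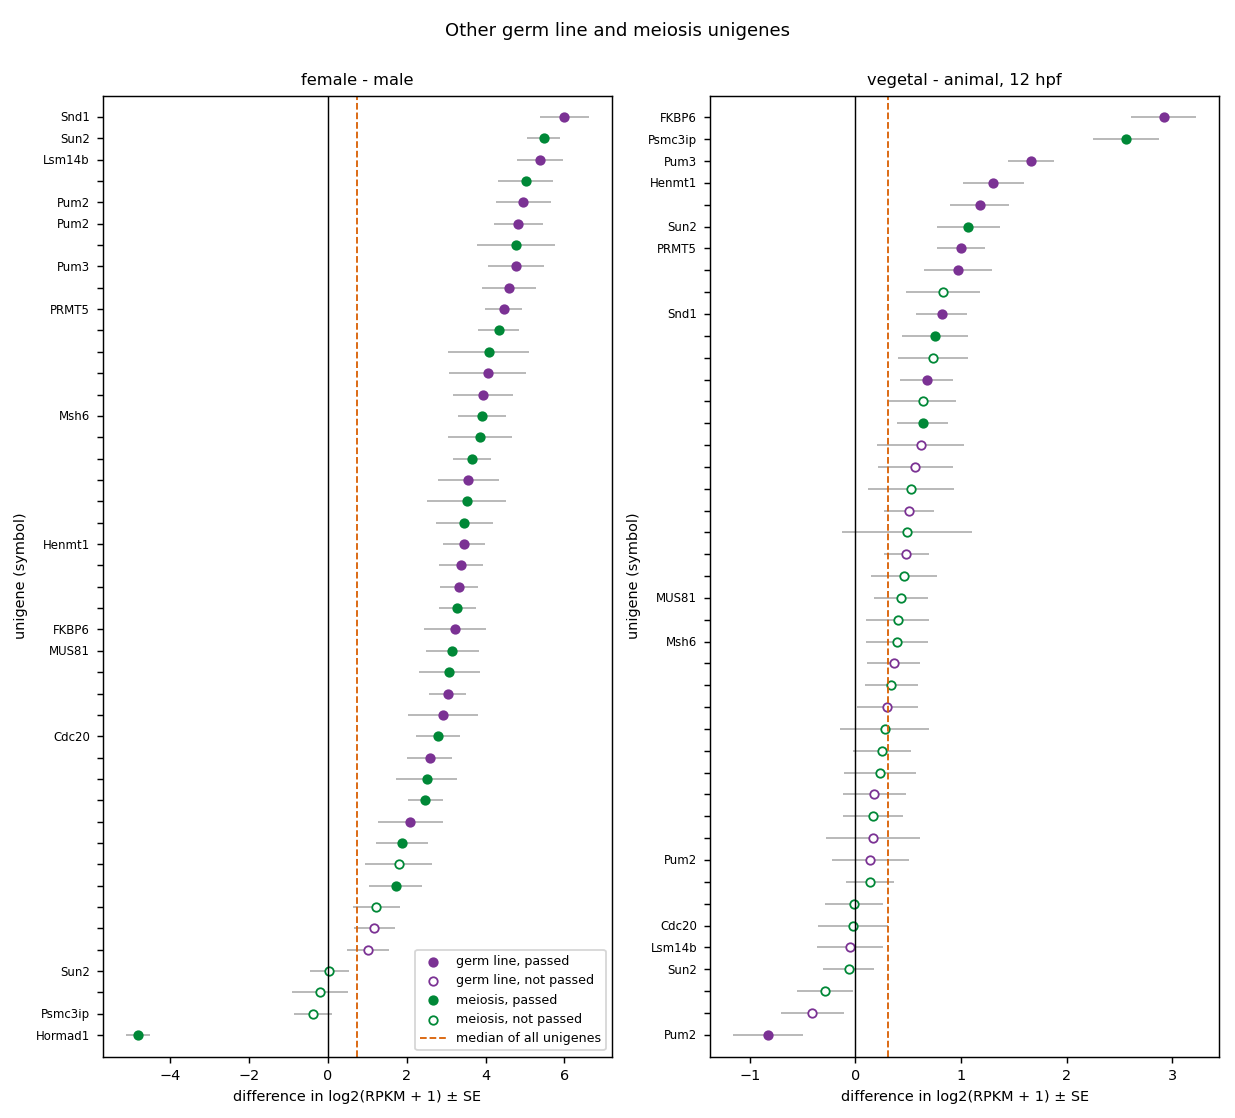
Difference in log2(RPKM + 1) with its SE for the other germ line and meiosis unigenes tested, females minus males on the left and vegetal minus animal samples at 12 hpf on the right; filled points passed an adjusted p of 0.05 and the dashed line is the median of all unigenes (0.73 and 0.30). The genes named in the text are labelled. Hormad1 lies at -4.83 between the sexes, while FKBP6 and Psmc3ip lead in vegetal samples.

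In juveniles against hatched larvae 22 of 44 were lower and 22 did not pass, where 34.9% of all unigenes were higher and 23.1% lower, with a median of -1.20 beside 0.10 for all unigenes, and with lane in the model 4 passed. Cdc20, which activates the ubiquitin ligase that ends metaphase in mitosis and meiosis, had 5.15, 5.87 and 5.48 RPKM in juveniles, against 141, 204 and 117 RPKM in hatched larvae (-4.54, adjusted p = 1.51e-10). Sun2 (-2.46, adjusted p = 1.57e-07), PRMT5 (-2.10, adjusted p = 1.75e-05) and Pum2, a Pumilio RNA-binding protein (-2.54, adjusted p = 5.84e-05), were lower too, with groups that did not overlap, as in 51.1% of all unigenes, and Pum2 did not pass with lane in the model (adjusted p = 0.0935). These values are of Sun2 DN31225 and Pum2 OD_K21COV6_DN10913_c1_g3_i4, and the second unigenes of Sun2 (-0.27, adjusted p = 0.588) and Pum2 (-1.13, adjusted p = 0.0899) did not pass.

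At 1.5 hpf against the unfertilized egg 3 of 44 were higher, 5 were lower and 36 did not pass, a share close to that of all unigenes, of which 9.64% were higher and 7.78% lower, with a median of -0.49 beside 0.05; 14 passed with the RPKM sum and 3 with lane in the model. Lsm14b, an RNA-binding protein of stored oocyte RNA, had 5.49, 5.87 and 5.14 RPKM at 1.5 hpf, against 54.1, 214 and 170.0 RPKM in eggs (-4.28, adjusted p = 6.15e-09). The mismatch repair gene Msh6 (-2.55, adjusted p = 0.000175) and the nuclease gene MUS81 (-2.38, adjusted p = 0.00154) were lower as well, and both lost their call with lane in the model (adjusted p = 0.295 and 0.32).

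The unigenes most like each gene were sought by Pearson's r of log2(mean RPKM + 1) over the 15 staged groups, which share libraries and depth. For Ddx4 DN37257 these were NUP188 (0.974), EDC4 (0.973) and Mogs (0.972), and for Piwil1 Ppm1g (0.990), CACTIN (0.987) and FAM50B (0.987). For BOLL they were NR2F1 (0.990), TUBA1C (0.990) and A1CF (0.989). For SPO11 they were Drc1 (0.972), CFAP61 (0.970) and Efcab2 (0.967), and for Msh5, whose levels were low throughout, they included Calm3 (0.735) and Galk2 (0.730). The authors' clusters of unigenes with a 4-fold change put Ddx4 DN37257, Ddx4 DN8752 and Piwil1 together in cluster 3, with 1593 unigenes, Ddx4 DN15514 in cluster 5 and BOLL in cluster 10, and did not hold the other 3.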

How the data were processed

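Per the labels' protocols, RNA was extracted with TRIzol and libraries were made without strand information for the hemisphere set and with it for the staged set. Reads were aligned with HISAT2 per the submitters' processing notes (version and genome build not given in the sources used here). The authors deposited RPKM tables per unigene, scaled by unigene length and read number, and counts were not used here. RPKM of a library need not sum to a fixed value, and scaling follows the most abundant RNAs, so a difference can move with them. Symbols are those of the staged sheet, and 148 further columns of values were not used. Its header gives 2 hpf for the stage that the labels call 2.5 hpf.

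Tests covered the unigenes that reached 1 RPKM in 4 or more hemisphere libraries (15697) or in 2 or more staged libraries (18704). Values were analysed as log2(RPKM + 1) with limma 3.58.1 in R 4.3.3 (lmFit, eBayes with trend), one mean per group and a common spread per set, with 18 and 28 residual degrees of freedom. Adjustment was Benjamini-Hochberg over every unigene tested, at a threshold of 0.05. All 8 unigenes passed the filter in both sets, and the tests were run first on simulated data. Tables and figures used Python 3.11.15, numpy 2.4.6, pandas 2.3.3 and matplotlib 3.10.9.

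Library numbers paired the hemisphere samples. Deviations from group means correlated at 0.315 to 0.701 at the 8-cell stage and 0.144 to 0.342 at 12 hpf, and each of 12 pairs per age was most alike its own number. The fit without this block was kept as the main one.

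Named genes were all 8 unigenes, up to 4 other germ line and meiosis genes with the smallest p past the threshold in each of 4 comparisons, and the 3 unigenes most alike in pattern. Some genes that this rule picks are not reported here. The genes, lists and rule were chosen with earlier results of these data known. Alternatives were a pseudocount of 0.1, no filter, quantile normalization, no trend, only the libraries compared, lane as a covariate, the replicate block, and leaving out libraries; the RPKM sum and the form of the library description as covariates were added after seeing the data. Reads per unigene were not used here, so no counting intervals are given.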

Additional observations from a re-analysis of the deposited data

Results flagged for a closer look

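Of 48 groups of 4 hemisphere libraries (8 unigenes in 6 groups), 5 held a library far from the other 3 by Dixon's ratio. For normally distributed values chance flags about 1 in 20 groups, a rate that need not hold for RPKM near 0. Ddx4 DN37257 had 21.4 RPKM in vegetal 8-cell library 6, against 30.6 to 31.6 RPKM in the others (ratio 0.894). Ddx4 DN8752 had 1.71 RPKM in animal 12 hpf library 4, against 0.627 to 0.791 RPKM (0.849). BOLL had 4.18 RPKM in whole 8-cell library 6, against 0 to 0.218 RPKM (0.948), in the library that stood apart from its group. BOLL in vegetal 8-cell library 5 (0.195 RPKM, ratio 1) and Msh5 in animal 8-cell library 3 (0.0543 RPKM, ratio 1) were the only values above 0 in their groups, which fixes the ratio at 1.

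The vegetal minus animal difference changed between 12 hpf and the 8-cell stage, by limma's test of the interaction, for BOLL (8.37), Ddx4 DN8752 (2.39), Msh5 (1.31) and Ddx4 DN15514 (-1.18). Msh5 passed the filter only through libraries of 12 hpf, mainly vegetal ones, so its value is a description rather than support.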

How the results depend on the processing

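The counts of the 8 unigenes that passed moved by more than 1.5 times under these settings. With quantile normalization they were 3 between vegetal and animal samples at 12 hpf (5 as reported). Those 3 were BOLL, Ddx4 DN8752 and a unigene that had not passed as reported. Quantile normalization also gave 1 at the step to the 16-cell stage (0), 1 to the 32-cell stage (0), 1 to 1.5 hpf (0), 1 to 3 hpf (2), 4 to 5 hpf (1), 3 to 8 hpf (1), 2 at 1.5 hpf against the egg (1) and 2 in males against juveniles (5). With the RPKM sum as a covariate the counts were 2 to the 32-cell stage, 4 to 1.5 hpf, 1 to 2.5 hpf (0), 1 to 3 hpf, 2 to 5 hpf and 2 to 8 hpf. With lane as a covariate they were 2 to 1.5 hpf, 3 to 2.5 hpf, 0 at 1.5 hpf against the egg and 0 in juveniles against hatched larvae (4), and with the description form 1 to the 32-cell stage, 3 to 1.5 hpf and 2 in juveniles. With only the libraries compared they were 4 to 1.5 hpf, 0 to 3 hpf and 2 at 1.5 hpf against the egg, and with a pseudocount of 0.1, 3 to 1.5 hpf, 1 to 3 hpf and 0 to 8 hpf. Of the other germ line and meiosis genes, 8 passed in vegetal samples (13) and 11 in juveniles (22) with only the libraries compared, 4 in juveniles and 3 at 1.5 hpf (8) with lane, 9 in juveniles with the description form and 14 at 1.5 hpf with the RPKM sum.

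Leaving out 1 library gave 4 to 5 of the 8 unigenes between vegetal and animal samples at 12 hpf, 3 to 5 for the change of that difference, 6 to 7 in whole embryos, 0 to 1 at fertilization, 0 to 1 at the steps to 2.5 hpf and 8 hpf, 1 to 3 to 3 hpf, 1 to 4 to 5 hpf, 0 to 3 at 1.5 hpf against the egg, 2 to 5 in juveniles, 5 to 6 between the sexes, 4 to 5 in each sex against juveniles, 1 in females against eggs, 7 to 8 for any stage difference and 0 elsewhere. For the other genes it gave 10 to 13 in vegetal samples, 30 to 40 between the sexes, 11 to 28 in juveniles and 5 to 16 at 1.5 hpf.

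Reversed values with quantile normalization were those of Ddx4 DN15514 (-1.64), SPO11 (-1.14) and Msh5 (-0.62) in whole embryos at 12 hpf, SPO11 at 3 hpf (-0.021), Msh5 in the change of the vegetal difference (-0.32), DDX4 DN20709 between the sexes (-0.31), and Ddx4 DN15514 (0.39) and Piwil1 (0.25) in males against juveniles. Ddx4 DN15514 reversed in juveniles with lane (0.12) and DDX4 DN20709 between the sexes without male library 26 (-0.61, against 3.57 without male library 25). The causes were not tested. Over 59 values of single genes, 766 alternative values kept direction and call, 73 kept direction and lost the call, and 9 gained it. Of the 10 reversed values, 4 also lost the call, 3 passed in the other direction and 3 passed in neither. The replicate block left 5 of 8 unigenes past the threshold at 12 hpf and 4 for the change of the difference, and it changed no other call; whole embryos of both ages could not be fitted with it. The symbols of the second sheet would keep 6 of the 8 unigenes. Depth per unigene was not used, and levels under 1 RPKM, as of Msh5 and early SPO11, limit what can be detected.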
